A study of Mus musculus with 12 samples.

Results

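Tumours of mice that received the doxorubicin prodrug were compared with tumours of mice that received doxorubicin itself, where both had first been given the same antibody-catalyst conjugate. The comparison was set by the agent label: 2 libraries labelled R+D against 2 labelled R+X, which are 4 of the 12 libraries of the series. R+D was read as the conjugate Ru-PD-L1 followed by DPD, and R+X as Ru-PD-L1 followed by DOX (doxorubicin), since of the drug names in the labels DOX alone has an X. DPD was read as the DOX prodrug named in the series title. If the readings of R+D and R+X were exchanged, their values would change places. All mice were C57BL/6J, 8 weeks old, and carried MC38 cells, a mouse colon carcinoma line, under the skin of the left flank. In both combined groups 14 µg of drug was injected beside the tumour 6 hours after the conjugate. The doses were equal by mass, and molar amounts, the dose of the conjugate in these groups and the schedule of their injections are not given in the labels. Tumours were taken on day 20.

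The other 8 libraries serve here as context. They came in pairs from mice given PBS (Ctrl), 14 µg of DOX or of DPD alone (0.56 mg/kg), or 20 µg of the conjugate alone (RP, 0.80 mg/kg), each by injection into the abdomen every 3 days from day 9. DPD against DOX in these mice is the same pair of compounds without the conjugate, in libraries that the combined groups do not share, but it also differs by route. Whether both libraries of a pair stem from different mice is not stated, and the p-values then measure a spread that may be technical.

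Doxorubicin is an anthracycline that slips into DNA and traps topoisomerase II on it, which leaves double-strand breaks and can switch on the p53 pathway. A prodrug is a masked form that has to be converted to act, and a catalyst bound to an antibody is meant to carry that conversion to cells that display the antibody's target, here the checkpoint ligand PD-L1. In tumours, dying cells can alert T cells, and T cells and natural killer cells release interferon gamma. That cytokine acts, in part through IRF1, on genes for chemokines, GTPases and antigen presentation, many of which carry an interferon-stimulated response element (ISRE) or a gamma-activated site (GAS) near their start. Cells short of oxygen use another switch, HIF1, which binds the hypoxia response element and raises glucose transport and glycolysis.

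Between R+D and R+X, 0 of 19525 genes tested passed a Benjamini-Hochberg adjusted p under 0.05 in edgeR's quasi-likelihood test (0% of genes tested). At an unadjusted p under 0.05 there were 732 genes higher in R+D (3.75%) and 296 lower (1.52%). Together these are 5.27% of genes tested, beside the 5% that evenly spread p-values would give. DESeq2, run as an alternative, called 34 genes higher and 7 lower. For 4389 genes both R+D libraries lay above both R+X libraries (22.5%), and for 4489 both lay below (23%). Differences below are log2 fold changes of R+D over R+X with the standard error from the fit. The median standard error over all genes was 0.29. With 2 libraries against 2, an exact permutation test of a single value cannot go below p = 0.333333.

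The 4 libraries held 46547114 (R+D replicate 2) to 52359825 (R+X replicate 2) counts. By Pearson correlation of log2 CPM, by Spearman correlation and by a chi-square distance of counts, R+D replicate 1 lay closest to a DPD library and R+D replicate 2 to an RP library. The R+X libraries were each other's nearest by the chi-square distance, but not by Pearson correlation. Among the 4, the first principal component held 52.5% of the variance and set R+D replicate 2 apart from the rest. That library also held the most skeletal muscle RNA, with 538 CPM (counts scaled to library size, with TMM factors) summed over 30 muscle genes, against 137 in R+D replicate 1 and 124 and 108 in R+X. Outside these groups, RP also stood high in muscle RNA, at 444.7 and 217.96 CPM, while the other 6 libraries held 93.5 to 156. Summed over 29 skin and hair genes, R+D replicate 2 stood at 715 CPM, against 368 in R+D replicate 1 and 512 and 385 in R+X. RP held 426 and 808 CPM of these, and the other 6 libraries 378 to 567. Markers of colon epithelium were low in all 12 libraries: 13 of 19 could be tested, their sum was 20.3 to 40.2 CPM, and Epcam was at most 1.3 CPM. Every list value below was therefore also computed without R+D replicate 2 and with a muscle score as a covariate.

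The next 4 stretches of DNA show promoters of genes from the interferon gamma and hypoxia lists described next. They are RefSeq promoter windows on GRCm38 (250 bases before to 50 after the gene's start, 5′ to 3′ on the gene's strand). Capitals mark the match, read on either strand: GAAA, 2 bases of any kind and GAAA again for the ISRE in Cxcl10 (chr5:92348840-92349139, minus strand), Gbp2 (chr3:142620413-142620712, plus) and Igtp (chr11:58199306-58199605, plus), and ACGTG for the hypoxia element in Slc2a1 (chr4:119108495-119108794, plus).
Cxcl10: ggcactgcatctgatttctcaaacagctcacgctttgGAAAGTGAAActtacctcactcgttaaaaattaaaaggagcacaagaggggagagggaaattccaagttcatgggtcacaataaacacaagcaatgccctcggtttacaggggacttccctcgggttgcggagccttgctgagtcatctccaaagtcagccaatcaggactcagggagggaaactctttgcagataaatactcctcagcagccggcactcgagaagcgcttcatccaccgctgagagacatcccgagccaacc
Gbp2: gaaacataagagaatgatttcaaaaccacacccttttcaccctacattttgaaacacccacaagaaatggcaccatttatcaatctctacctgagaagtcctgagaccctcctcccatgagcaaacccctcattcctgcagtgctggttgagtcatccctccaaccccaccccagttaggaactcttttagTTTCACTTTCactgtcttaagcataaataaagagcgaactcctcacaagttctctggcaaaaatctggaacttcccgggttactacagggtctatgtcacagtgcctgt
Igtp: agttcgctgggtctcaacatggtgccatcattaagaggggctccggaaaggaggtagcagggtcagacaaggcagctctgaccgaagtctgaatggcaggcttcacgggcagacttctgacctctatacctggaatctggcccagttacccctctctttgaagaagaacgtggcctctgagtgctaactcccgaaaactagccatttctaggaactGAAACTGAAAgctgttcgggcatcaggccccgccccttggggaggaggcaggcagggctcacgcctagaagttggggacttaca
Slc2a1: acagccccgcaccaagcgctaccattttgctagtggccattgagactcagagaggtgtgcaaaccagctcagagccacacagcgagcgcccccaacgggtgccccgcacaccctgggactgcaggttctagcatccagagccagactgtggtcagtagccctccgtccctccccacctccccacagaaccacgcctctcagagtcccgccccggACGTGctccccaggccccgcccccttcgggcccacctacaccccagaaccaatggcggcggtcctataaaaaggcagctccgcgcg
The ISRE letters were found in 11 of the 21 interferon gamma response genes that had a window (52.4%), against 3.87% of all tested genes with one. The GAS letters TTCNNNGAA were found in 9 of the 21 (42.9%, against 8.48%). ACGTG was found in 16 of 21 hypoxia and glycolysis genes (76.2%, against 27.2%). An ISRE match and a GAS match can share bases. A match describes these letters and says nothing of binding. Of the 32 tested interferon gamma response genes, 21 had a window. Both lists hold genes of pathways described above as acting through these elements, and the shares use no R+D or R+X value. They are therefore no result about the difference between R+D and R+X.

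Genes of the interferon gamma response were higher in R+D. This list, like the others here, was chosen with earlier results of these data known. Its counts beside those of all genes are therefore a description. All 32 tested members had a positive log2 fold change, where 50.7% of all genes had one, with a median of 0.72 against 0.00 for all genes tested, and 26 had both R+D libraries above both R+X libraries, where 22.5% of all genes did. At an unadjusted p under 0.05 there were 18 of the 32 higher and 0 lower (3.75% and 1.52% of all genes), and 0 passed the adjusted threshold. The chemokine gene Cxcl10, whose product draws activated T cells, stood at 126 and 94.5 CPM in R+D against 68.4 and 44.7 in R+X (0.96 ± 0.24, edgeR adjusted p = 0.820). Gbp2, a guanylate-binding protein gene, was at 505 and 562 CPM against 346 and 216.9 (0.92 ± 0.24). The immunity-related GTPase genes Igtp and Ifi47 were at 91.9 and 141 against 74.1 and 45.8 CPM (0.96 ± 0.25), and at 49.8 and 56.9 against 34.8 and 26.5 CPM (0.80 ± 0.18). In each of these 4 genes the R+D and R+X libraries did not overlap, and R+X replicate 2 was the lowest of the 4 libraries.

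Irf1, a transcription factor gene of the same pathway, had a smaller difference. It stood at 272 and 343 CPM in R+D against 235 and 163 in R+X (0.63 ± 0.22, unadjusted p = 0.0155). Cxcl9, the other main T cell chemokine of the list, overlapped: 113 and 48.6 CPM in R+D against 62.9 and 42.8 in R+X (0.62 ± 0.35). Its high value came from R+D replicate 1, and without that library the fold change was -0.14. Ifng itself was near the detection floor, at 0.918 and 1.90 against 0.807 and 0.574 CPM (1.03 ± 0.69). Reads of the Gbp and GTPase families can be split among close copies, so their single values are uncertain.

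For the list as a whole the direction did not rest on 1 library. Its median was 0.56 without R+D replicate 2 and 0.51 without R+X replicate 2. With the muscle covariate it was 0.57, with 6 of 32 higher at an unadjusted p under 0.05, against 18 in the main fit. Over all genes the number higher at that threshold also fell with this covariate, from 732 to 176. Summed over the list, R+D held 3476 and 3974 CPM and R+X 2706 and 1890, while Ctrl held 2186 and 1892 and RP, the conjugate alone, 4408 and 5402. R+D thus lay between Ctrl and RP, and R+X replicate 2 at the level of Ctrl.

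**Figure D1:**
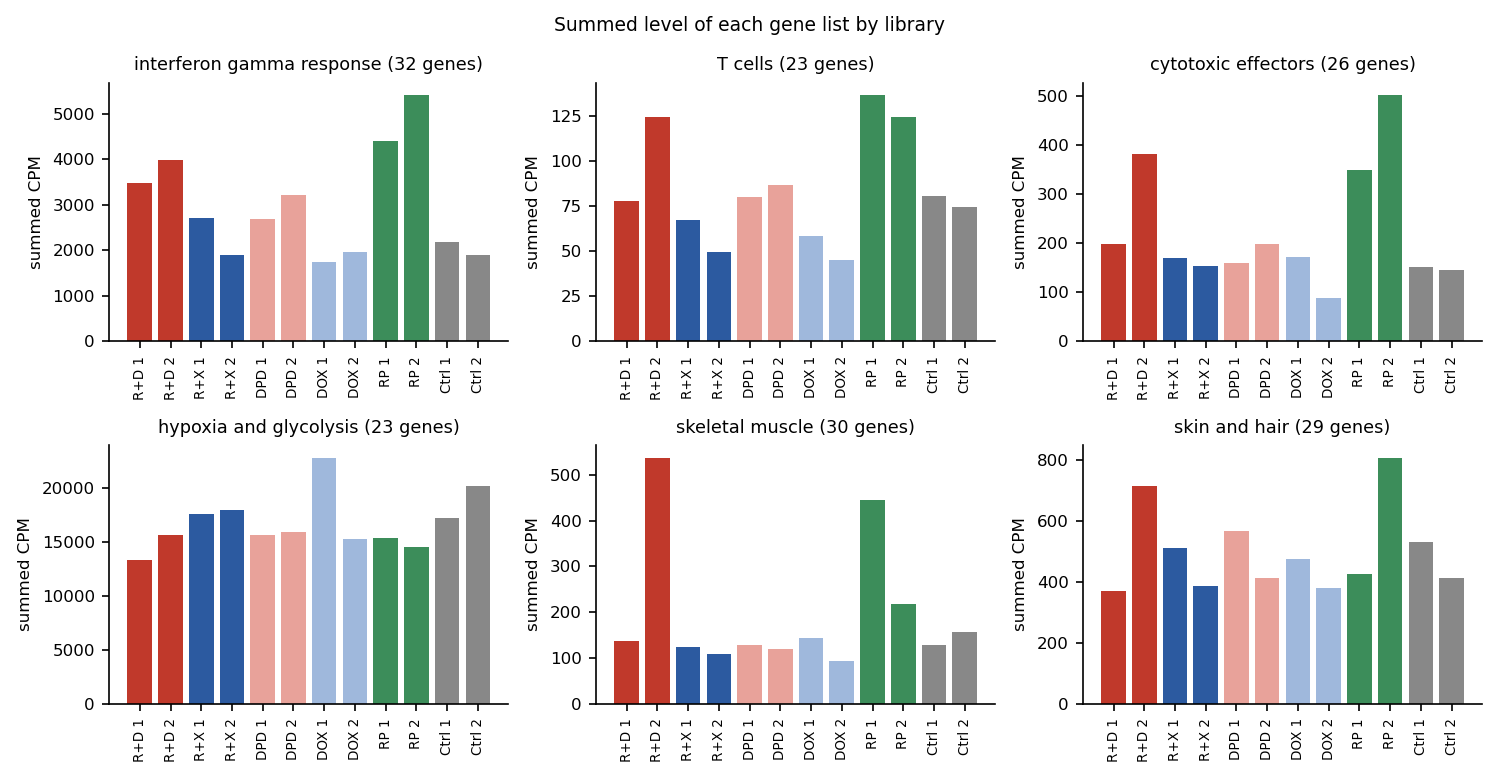
Summed level (CPM, y axis from 0) of 6 gene lists in each of the 12 libraries, 1 bar per library, coloured by group. Interferon gamma response genes sum to 3476 and 3974 CPM in R+D and to 2706 and 1890 in R+X; the skeletal muscle sum of R+D replicate 2 (538 CPM) is 1 of the tall bars of its panel.

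The same pair of compounds without the conjugate gave differences of the same direction. Between DPD and DOX alone 0 genes passed (588 higher, 3.01%, and 249 lower, 1.28%, together 4.29%, at an unadjusted p under 0.05). All 32 interferon gamma response genes were positive there too, with a median of 0.75 and 20 at an unadjusted p under 0.05. Cxcl10 stood at 91.5 and 83.7 CPM in DPD against 41.0 and 60.8 in DOX (0.78 ± 0.24), and Gbp2 at 324 and 400 against 178 and 221 (0.86 ± 0.24). Of the 732 genes higher in R+D at that threshold, 603 (82.4%) were positive in DPD over DOX, where 47.6% of all genes were. There were 151 genes at that threshold in both comparisons, which is 20.6% of the first list and 25.7% of the second. Both comparisons take each gene's spread from the same fit, so their p-values are not independent. Of the 296 lower genes 212 (71.6%) were negative, where 52.3% of all genes were, and 28 were in both lists (9.46% and 11.2%). Across all 19525 genes, which are not independent replicates, Spearman's rho between the 2 sets of fold changes was 0.28.

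**Figure D2:**
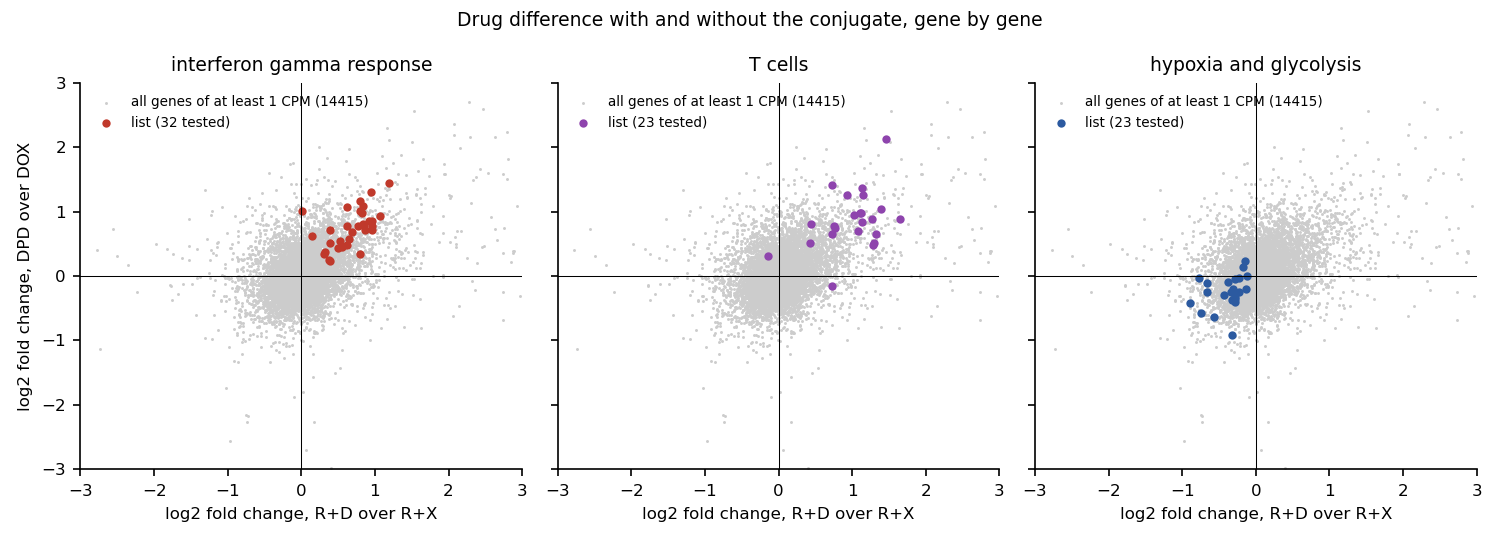
Log2 fold change of R+D over R+X (x axis) against DPD over DOX (y axis), 1 point per gene; grey points are genes of at least 1 CPM in the combined groups, coloured points the tested members of a list, and points beyond 3 on either axis are not drawn. The 32 interferon gamma response genes are positive on both axes, and the 23 hypoxia and glycolysis genes are all negative on the x axis.

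Whether the difference between the compounds changed with the conjugate was tested directly as the difference of the 2 differences. No gene passed (0 of 19525), and at an unadjusted p under 0.05 0.978% of genes were above 0 and 1.14% below. Over the interferon gamma response genes the median of this value was -0.003, with 0 above and 1 below at that threshold. For Cxcl10 it was 0.18 ± 0.34 and for Gbp2 0.07 ± 0.34. DOX and DPD alone were injected into the abdomen and the combined drugs beside the tumour, so conjugate and route cannot be told apart in this test.

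Markers of T cells were higher in R+D, with the highest sum of the 4 compared libraries in R+D replicate 2. Of 23 tested, 22 were positive, with a median of 1.10, and 13 were higher at an unadjusted p under 0.05 and 0 lower, where 50.7% of all genes were positive, 3.75% higher and 1.52% lower. Cd3g, a chain of the T cell receptor complex, stood at 3.65 and 5.78 CPM in R+D against 2.32 and 1.28 in R+X (1.39 ± 0.39, edgeR adjusted p = 0.843). The CD8 coreceptor genes Cd8b1 and Cd8a were at 3.47 and 5.74 against 2.55 and 1.13 CPM (1.33 ± 0.38), and at 7.66 and 13.8 against 6.99 and 3.10 CPM (1.09 ± 0.44). Zap70 and Lat, which relay the receptor's signal, were at 1.10 ± 0.31 and 1.27 ± 0.42. Of the 23 markers, 17 had both R+D libraries above both R+X libraries, where 22.5% of all genes did. The 5 genes named above were among these 17. In each of the 5, R+D replicate 2 was the highest of the 4 libraries and R+X replicate 2 the lowest. In bulk RNA, more cells of a type and more RNA per cell cannot be told apart.

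Among the 4 compared libraries, genes of cytotoxic effector cells also had their highest sum in R+D replicate 2 (383 CPM, against 199 in R+D replicate 1 and 170 and 153 in R+X), while RP held 350 and 502. Of 26 tested, 25 were positive, with a median of 0.93, and 11 were higher at an unadjusted p under 0.05 and 0 lower, beside the same 3.75% and 1.52% of all genes. Gzmb, the granzyme B gene, stood at 14.98 and 25.8 CPM in R+D against 10.7 and 7.27 in R+X (1.19 ± 0.38). Prf1, the perforin gene, was at 14.8 and 28.4 against 13.6 and 11.6 CPM (0.78 ± 0.38, 95% interval -0.05 to 1.61). The chemokine genes Ccl4 and Ccl5 were at 3.47 and 7.35 against 2.50 and 1.82 CPM (1.32 ± 0.35), and at 7.99 and 15.2 against 5.24 and 5.28 CPM (1.14 ± 0.31). Nkg7 and the receptor gene Klrk1 had fold changes of 1.29 ± 0.38 and 1.04 ± 0.31. Granzyme genes resemble one another closely, so the value of any single one is uncertain.

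The lymphocyte differences were smaller without the muscle-rich library. Without R+D replicate 2 the median was 0.59 for T cells and 0.32 for cytotoxic effectors. Without R+X replicate 2 these medians were 0.76 and 0.83. With the muscle covariate they were 0.43, with 1 of 23 higher at an unadjusted p under 0.05, and 0.34, with 0 of 26. Over all genes the number higher at that threshold also fell with this covariate, from 732 to 176. Summed T cell markers were 78.1 CPM in R+D replicate 1 and 125 in replicate 2, against 67.2 and 49.8 in R+X and 81.0 and 74.4 in Ctrl. RP, the conjugate alone, held 136.7 and 124. R+D replicate 1 thus lay within the range of Ctrl for this sum, and above both R+X libraries. The part of muscle tissue in these differences was not tested. In DPD against DOX alone, the summed muscle level was 119 to 128 CPM in DPD and 93.5 to 144 in DOX. There the T cell median was 0.85, with 7 of 23 higher at an unadjusted p under 0.05. The cytotoxic median was 0.58, with 6 of 26 higher at that threshold, where 3.01% of all genes were.

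Regulatory T cells, which restrain other T cells, had 9 of 10 markers positive (median 0.76, or 0.46 without R+D replicate 2) and 0 at an unadjusted p under 0.05. Foxp3, their defining transcription factor gene, stood at 2.04 and 1.28 CPM in R+D against 1.06 and 0.803 in R+X (0.84 ± 0.48, and 0.44 without R+D replicate 1). Plasma cell genes were uneven between the R+D libraries: Jchain, the joining chain of secreted antibodies, was at 4.46 and 15.5 against 2.48 and 0.478 CPM (2.75 ± 0.97), and Mzb1 at 0.330 and 1.26 against 0.166 and 0.191 CPM. In this list of 10 the median of 0.84 came to 0.25 without R+D replicate 2.

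Of 18 checkpoint genes 12 were positive in R+D over R+X, where 50.7% of all genes were. Cd274, which encodes PD-L1, the target of the conjugate, stood at 31.6 and 36.2 CPM in R+D against 26.9 and 24.7 in R+X. The libraries did not overlap, but the fold change of 0.39 ± 0.27 had a 95% interval of -0.21 to 0.99, and the unadjusted p was 0.177. Its level was 46.0 and 70.9 CPM in RP and 21.4 and 19.3 in Ctrl. Pdcd1, the receptor PD-1, was at 3.43 and 4.32 against 3.62 and 1.59 CPM and overlapped (0.57 ± 0.37). At an unadjusted p under 0.05 in edgeR, 1 of the 18 was higher and 0 lower, beside 3.75% and 1.52% of all genes. It was Lag3, an inhibitory receptor of T cells, at 8.68 and 16.8 against 8.11 and 6.77 CPM (0.77 ± 0.31). Without R+D replicate 2 its fold change was 0.21. The median over the list was 0.17, or 0.03 without R+D replicate 2. In DPD over DOX it was 0.49, with 17 of 18 positive and 3 higher at an unadjusted p under 0.05 (3.01% of all genes).

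The type I interferon response had a median of 0.05, with 16 of 29 positive. At an unadjusted p under 0.05, 2 were higher and 0 lower, beside 3.75% and 1.52% of all genes. The sign of this median rested on single libraries: it was -0.20 without R+D replicate 1, -0.08 without R+X replicate 2 and 0.22 without R+D replicate 2. Its 2 members at that threshold were Zbp1, described below, and Xaf1 at 44.9 and 48.1 against 38.9 and 33.1 CPM (0.37 ± 0.15). MHC class I presentation had a median of 0.24 (16 of 23 positive, 0 at an unadjusted p under 0.05), which came to 0.04 without R+D replicate 2 and -0.01 with the muscle covariate. Within it, Tap1, the peptide transporter, was at 95.04 and 125 against 97.3 and 76.2 CPM (0.35 ± 0.22), Nlrc5, the activator of class I genes, at 0.62 ± 0.33, and B2m, the light chain, at -0.20 ± 0.19. Among cytosolic DNA sensing genes, 3 of 11 were higher at that threshold, where 3.75% of all genes were, and 0 lower: Zbp1, Samhd1 (288 and 326 against 235 and 206.5 CPM, 0.47 ± 0.14) and Ikbke (25.0 and 25.2 against 20.3 and 17.8 CPM, 0.40 ± 0.15). Samhd1 restricts viral DNA synthesis by removing nucleotides, and Ikbke encodes a kinase upstream of interferon genes.

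The median of MHC class II genes was slightly negative with the conjugate and positive without it. These genes present antigen in dendritic cells, macrophages and B cells. In R+D over R+X their median was -0.10, with 3 of 12 positive and 0 at an unadjusted p under 0.05. It was -0.20 without R+D replicate 2 and -0.38 with the muscle covariate. With rows of one name summed it was -0.02, with 5 of 13 positive and 1 higher at that threshold. In DPD over DOX it was 0.57, with 11 of 12 positive and 3 higher (3.01% of all genes). Cd74, the invariant chain, stood at 530 and 513 CPM in R+D against 569 and 615 in R+X, and at 789 and 647 in DPD against 561 and 434 in DOX. The difference of differences for Cd74 was -0.71 ± 0.33 (unadjusted p = 0.0551), and 3 of the 12 genes were below 0 at an unadjusted p under 0.05, where 1.14% of all genes were. Among these 3 was H2-Eb1, a class II beta chain gene (-0.87 ± 0.39). Macrophage and monocyte genes had a median of 0.04 with the conjugate (-0.12 without R+D replicate 2) and 0.26 without it, with 4 of 27 below 0 in the same test. Adgre1, which encodes F4/80, was at 19.8 and 17.1 CPM in R+D, 25.7 and 19.9 in R+X, 25.8 and 26.4 in DPD and 19.3 and 20.6 in DOX (-0.69 ± 0.29 for the difference of differences). None of these passed the adjusted threshold, and the part of route in them cannot be told apart from that of the conjugate.

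General macrophage genes overlapped or lay close between the groups. Lyz2, lysozyme, was at 747 and 909 CPM in R+D against 857 and 841 in R+X (95% interval of the fold change -0.40 to 0.32). Csf1r, the growth factor receptor of these cells, was at 63.8 and 55.7 against 70.6 and 67.5 CPM (-0.21 ± 0.18). Arg1, arginase 1, overlapped at 178 and 267 against 206.2 and 317 CPM (-0.23 ± 0.27). Ly6c2 of inflammatory monocytes was at 10.01 and 16.5 against 9.44 and 8.45 CPM (0.57 ± 0.25).

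Chil3 encodes the chitinase-like protein Ym1 of alternatively activated macrophages. Among named genes lower in R+D, with libraries that did not overlap and a mean of at least 1 CPM, it had the smallest edgeR p. It stood at 5.51 and 8.26 CPM in R+D against 22.3 and 71.8 in R+X (-2.77 ± 0.54, 95% interval -3.98 to -1.57, edgeR adjusted p = 0.820; DESeq2 adjusted p = 7.98e-05). Both R+X libraries lay above the range of DPD (11.8 and 16.5), DOX (14.6 and 6.76) and RP (10.98 and 15.4), while Ctrl was at 18.6 and 27.5 CPM, so that R+X replicate 1 lay within Ctrl. The difference of differences was -3.18 ± 0.74 (unadjusted p = 0.00139). The gene lies on chromosome 3 from 106147554 to 106167564 on GRCm38, among close relatives that could share its reads.

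On the higher side, 12 genes were chosen for the smallest p in this comparison. The choice was among named genes whose libraries did not overlap and whose mean was at least 1 CPM. Their differences here are therefore a description. The choice used no value of DPD against DOX, but both comparisons take each gene's spread from the same fit. Choosing a small p here favours genes of small estimated spread, which lowers their p there too. First was Gja4, the gap junction gene of connexin 37 in arterial endothelium (chromosome 4, 127311420 to 127314039). It stood at 23.3 and 28.2 CPM in R+D against 10.1 and 6.56 in R+X (1.62 ± 0.27, unadjusted p = 0.000117, edgeR adjusted p = 0.763). Levels were 9.15 and 12.8 CPM in DPD, 5.95 and 4.19 in DOX, 7.57 and 7.13 in Ctrl and 40.2 and 31.7 in RP. In DPD over DOX the fold change was 1.11 ± 0.27 (unadjusted p = 0.00204). Both combined groups and DPD thus lay below RP, and both DOX libraries below both Ctrl libraries.

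For 3 further genes of the 12 the R+D libraries lay close to each other, and all 3 were highest in RP. Apol10b, of the apolipoprotein L family (chromosome 15, 77584154 to 77598542), was at 18.8 and 18.7 CPM against 10.1 and 9.01 (0.98 ± 0.18). Zbp1, a sensor of Z-form nucleic acids that can start necroptosis (chromosome 2, 173206612 to 173218959), was at 50.3 and 58.7 against 33.2 and 25.99 CPM (0.88 ± 0.17). Serpina3g, a serine protease inhibitor gene (chromosome 12, 104236147 to 104241939), was at 102 and 94.7 against 60.2 and 53 CPM (0.80 ± 0.16). All 3 are annotated as protein coding. In DPD over DOX they stood at 1.21 ± 0.18, 0.53 ± 0.17 and 0.80 ± 0.16. Apol10b and Serpina3g lie in families of close copies and are uncertain for that reason.

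The other 8 were more mixed in kind and in their spread. Sfrp2, a secreted Wnt modulator of fibroblasts, was at 7.01 and 14.2 CPM against 1.49 and 1.66 (2.74 ± 0.60). Adamts15, a secreted protease gene, was at 1.56 and 6.88 against 0.393 and 0.402 CPM (3.40 ± 0.74), and Fxyd6, a sodium pump regulator gene, at 3.12 and 7.87 against 0.952 and 0.612 CPM (2.81 ± 0.60). In these 3 genes, and in the long noncoding RNA Rian (2.52 and 6.82 against 0.993 and 1.07 CPM), R+D replicate 2 was at least as far above replicate 1 as replicate 1 was above R+X on the CPM scale. In RP replicates 1 and 2, Sfrp2 was at 27.7 and 8.41 CPM and Adamts15 at 11.7 and 5.30 CPM. Fxyd6 stood there at 11.2 and 3.55 CPM and Rian at 7.61 and 4.72 CPM. R+D replicate 2 and RP replicate 1 also held the most muscle RNA of the 12 libraries (538 and 444.7 CPM). Of the 12 genes, 8 had a higher mean in RP than in R+D, and 4 a lower one. Psd (79.4 and 72.4 against 45.7 and 38.2 CPM), Guca1b (3.08 and 2.81 against 0.952 and 1.03 CPM), the amino acid transporter gene Slc7a3 (7.33 and 6.32 against 3.31 and 3.00 CPM) and the ephrin gene Efnb3 (10.4 and 15.6 against 6.33 and 5.72 CPM) completed the 12. All 12 were positive in DPD over DOX. Of them, 10 were at an unadjusted p under 0.05 there (3.01% of all genes), while Psd and Rian were not. The choice favours this count through the shared estimate of spread. All 12 kept their sign when any 1 library was left out. With the muscle score as a covariate all 12 had an unadjusted p under 0.05 in edgeR, and DESeq2 called 11. These refits reuse the libraries that chose the genes, so they are a description and no independent support.

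**Figure D3:**
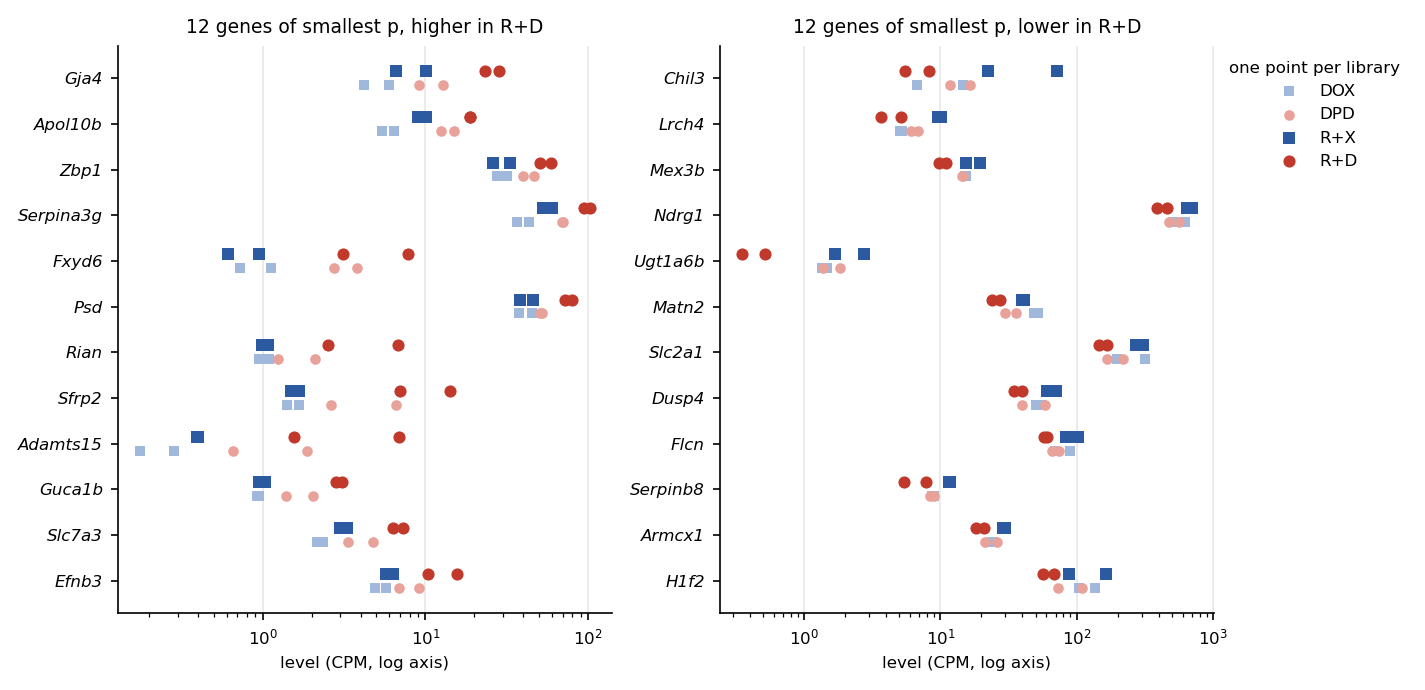
Level in CPM (log axis) of the 12 genes of smallest p higher and the 12 lower in R+D, 1 point per library; darker points are the combined groups (circles R+D, squares R+X) and paler points the drugs alone (circles DPD, squares DOX). By the rule that chose them, R+D and R+X do not overlap for any of the 24; on the left DPD lies on the right of DOX for each gene.

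The 12 genes of smallest p on the lower side, under the same conditions, had less of a counterpart without the conjugate. In DPD over DOX 9 were negative. At an unadjusted p under 0.05 there, 1 was lower, where 1.28% of all genes were. It was Matn2, a matrix protein gene, at 27.5 and 23.9 CPM in R+D against 39.5 and 41.1 in R+X. Its levels were 36.03 and 29.7 CPM in DPD against 48.7 and 51.7 in DOX. For 8 of the 12 the difference of differences was at an unadjusted p under 0.05, where 2.12% of all genes were; since these genes were chosen in one of its terms, that count is a description. Lrch4 was at 5.10 and 3.68 CPM in R+D against 10.02 and 9.54 in R+X (-1.15 ± 0.26). Mex3b, an RNA-binding protein gene, was at 10.9 and 9.83 against 15.3 and 19.4 CPM, Serpinb8 at 5.42 and 7.83 against 11.6 and 11.7 CPM, and Armcx1 at 20.7 and 18.2 against 28.8 and 29.6 CPM. Dusp4, a phosphatase that turns off MAP kinases, was at 39.9 and 35.0 against 60.5 and 70.4 CPM (-0.81 ± 0.21), and Flcn, the folliculin gene, at 57.9 and 60.5 against 83.7 and 103 CPM (-0.66 ± 0.17). Ugt1a6b, a glucuronidation enzyme gene that shares exons with its neighbours and is uncertain, was at 0.349 and 0.516 against 1.68 and 2.74 CPM. The histone gene H1f2 was at 68.5 and 56.5 against 88.4 and 166 CPM. With the muscle covariate 7 of the 12 were still at an unadjusted p under 0.05, and DESeq2 called 3 (Chil3, Lrch4 and Ugt1a6b).

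Of the 12, Slc2a1 and Ndrg1 are HIF1 targets, and the hypoxia and glycolysis list was lower as a whole. All 23 tested members were negative, where 49.3% of all genes were, with a median of -0.30, and 21 had both R+D libraries below both R+X libraries, where 23% of all genes did. At an unadjusted p under 0.05, 5 were lower (1.52% of all genes) and 0 higher. A shared sign was not particular to this list: of 28 cytosolic ribosomal protein genes 1 was positive (median -0.13), with 0 at that threshold. Slc2a1, the glucose transporter GLUT1 (chromosome 4, 119108745 to 119137330), stood at 166 and 146 CPM in R+D against 273 and 305 in R+X (-0.89 ± 0.23, edgeR adjusted p = 0.820). Ndrg1, a stress-responsive gene (chromosome 15, 66929318 to 66969641), was at 392.04 and 462 against 651 and 701 CPM (-0.66 ± 0.16). Ero1l, an oxidase of protein folding, was at 122 and 151 against 215 and 218.3 CPM (-0.67 ± 0.25), and Bnip3, which drives removal of mitochondria, at 138 and 226.7 against 280 and 331 CPM (-0.74 ± 0.28).

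Leaving out R+D replicate 2 gave a median of -0.41 for this list, and the muscle covariate -0.48. With R+D replicate 1 left out it was -0.26. In DPD over DOX it was -0.25, with 2 of 23 lower at an unadjusted p under 0.05 (1.28% of all genes). There the summed level of 1 library, DOX replicate 1, stood apart at 22821 CPM, against 15286 in DOX replicate 2 and 15659 and 15930 in DPD. The same sum was 13297 and 15617 CPM in R+D, 17615 and 17981 in R+X, and 17186 and 20165 in Ctrl. The NRF2 and glutathione list had a median of -0.14, with 3 of 21 positive and 2 lower at an unadjusted p under 0.05. Of 15 heat shock genes 1 was higher and 3 lower at that threshold, where 3.75% of all genes were higher and 1.52% lower. Hspb1, a small heat shock protein gene, was higher at 2.77 and 11.5 against 2.86 and 2.26 CPM (1.48 ± 0.59), with its high value in R+D replicate 2 and overlap between the groups. Among the lower ones, Hspa1a was at 10.2 and 8.41 against 16.2 and 16.9 CPM and Hspa1b at 35.3 and 29.7 against 52.0 and 61.1 CPM, and the list median was 0.16, or -0.05 without R+D replicate 2. Hspa1a and Hspa1b are near-identical copies. Atf3, an early stress factor gene, was at 13.1 and 14.96 against 21.6 and 24.6 CPM (-0.72 ± 0.25).

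**Figure D4:**
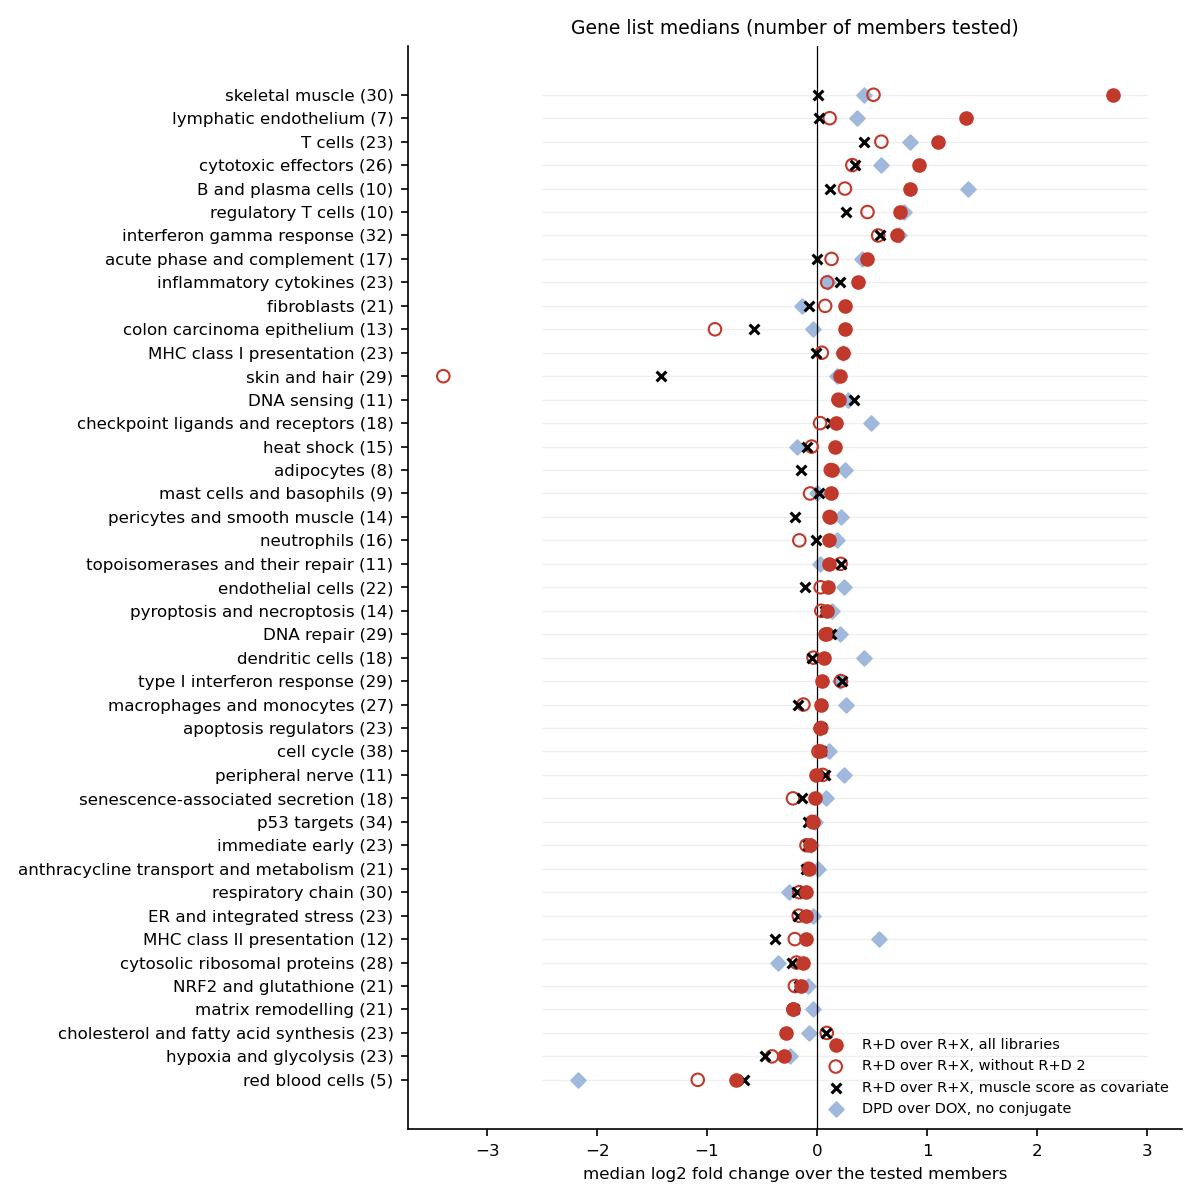
Median log2 fold change over the tested members of each list of at least 5 (x axis), for R+D over R+X in the fit of all libraries (filled circles), without R+D replicate 2 (open circles) and with the muscle score as a covariate (crosses), and for DPD over DOX (diamonds). The interferon gamma response median is 0.72, 0.56 and 0.57. The skeletal muscle median is 2.69, 0.51 and 0.01. The last value is built in, since the muscle score is the mean of the same muscle genes.

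For the main genes of the drug's own action, the interval of the difference between the compounds included 0. Top2a, the topoisomerase II alpha gene and the main target of doxorubicin in dividing cells, stood at 833 and 847 CPM in R+D against 807 and 708 in R+X, a fold change of 0.15 with a 95% interval of -0.30 to 0.60. Top2b was at 168 and 121 against 137 and 138 CPM (95% interval -0.51 to 0.66). Cdkn1a, the p21 gene that p53 raises to stop the cycle, was at 75.2 and 72.4 against 89.2 and 93.4 CPM (95% interval -0.75 to 0.13), and in Ctrl at 95.1 and 98.4 CPM. Mdm2, the p53 antagonist, was at 45.0 and 45.8 against 51.0 and 61.0 CPM (95% interval -0.70 to 0.10). Bax, a p53 target of apoptosis, was at 48.6 and 47.5 against 46.4 and 54.4 CPM (95% interval -0.83 to 0.69). These intervals leave room for changes of up to about the size of their ends, and do not show that the compounds act alike.

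Over 34 p53 targets the median was -0.03, with 13 positive. At an unadjusted p under 0.05, 3 were higher and 2 lower, beside 3.75% and 1.52% of all genes. Pidd1, a death-domain gene of p53 signalling, was at 28.97 and 27.6 against 18.0 and 17.1 CPM (0.69 ± 0.16), Btg2, an antiproliferative gene, at 6.98 and 8.28 against 5.24 and 5.07 CPM (0.57 ± 0.20), and Eda2r, a receptor gene, at 3.86 and 3.49 against 6.00 and 8.09 CPM (-0.94 ± 0.36). DNA repair (median 0.07, 18 of 29 positive) and cell cycle genes (0.03, 23 of 38 positive) had 0 members at that threshold. Mki67, the proliferation marker, was at 493 and 477 against 375 and 332 CPM (0.46 ± 0.28, 95% interval -0.17 to 1.08). Of 11 genes of topoisomerases and their repair 1 was higher, Rmi2 of the decatenation complex (13.5 and 12.5 against 10.5 and 8.89 CPM).

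Genes that move or convert anthracyclines had a median of -0.08, with 7 of 21 positive. Over all genes tested, 1.52% were lower at an unadjusted p under 0.05. Nqo1, a quinone reductase and NRF2 target, was the 1 member at an unadjusted p under 0.05, at 9.99 and 10.3 CPM in R+D against 14.7 and 17.5 in R+X (-0.66 ± 0.22), and at 16.1 and 22.4 CPM in Ctrl. The efflux pump genes Abcb1a and Abcc1 were at 6.13 and 5.12 against 7.64 and 5.91 CPM (95% interval -0.89 to 0.35), and at 65.2 and 81.7 against 86.7 and 86.6 CPM (95% interval -0.75 to 0.28). Abcb1a parted between the settings, at 0.71 ± 0.28 in DPD over DOX and -0.97 ± 0.40 in the difference of differences (unadjusted p = 0.0332), without passing the adjusted threshold. Of the genes linked to immunogenic cell death, Hmgb1 (95% interval -0.38 to 0.51), P2rx7 (-0.62 to 0.09), Tlr4 (-0.93 to 0.38) and Ccl2 (-0.07 to 0.78) all had intervals that included 0.

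**Figure D5:**
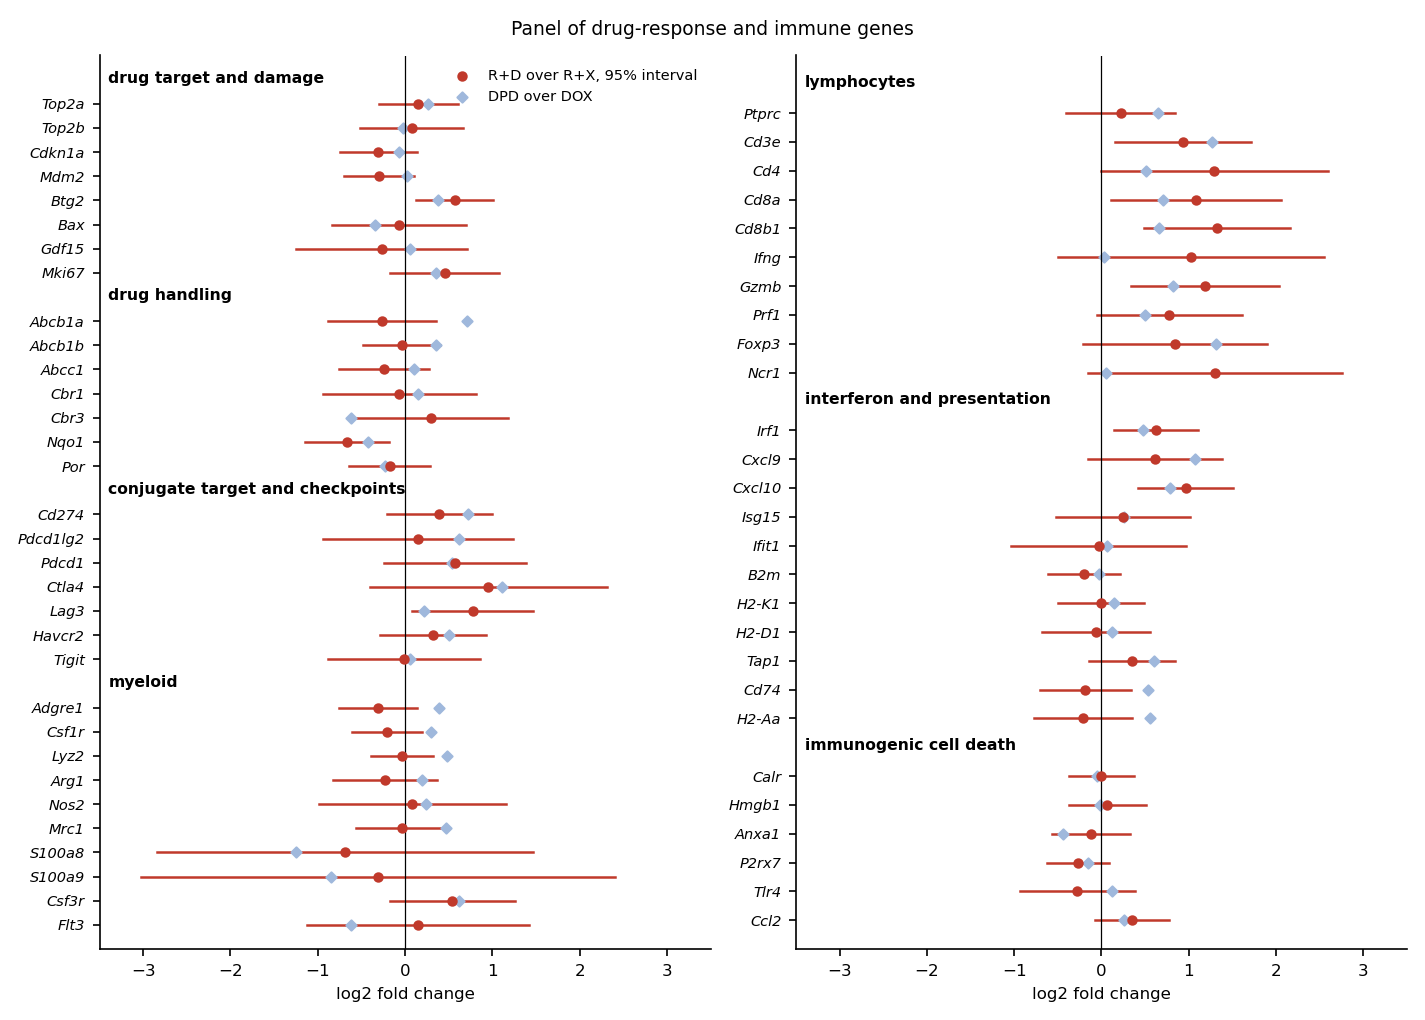
Log2 fold change of R+D over R+X with its 95% interval (circles and lines) and of DPD over DOX (diamonds) for a panel of genes, grouped by role. Top2a and Cdkn1a have intervals that include 0, while those of Cd8a, Gzmb, Irf1 and Cxcl10 lie above it before any adjustment over genes.

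Stromal genes were mixed. Over all genes tested, 3.75% were higher and 1.52% lower at an unadjusted p under 0.05, the threshold of the counts in this paragraph. In the fibroblast list, Col14a1 (12.9 and 16.6 against 3.68 and 5.47 CPM, 1.68 ± 0.53) and Lum (6.35 and 17.8 against 3.48 and 4.17 CPM, 1.66 ± 0.52) were among 3 of 21 higher at an unadjusted p under 0.05, and the median was 0.26, or 0.07 without R+D replicate 2. Both are matrix genes of connective tissue. Among matrix remodelling genes 2 of 21 were lower and 0 higher: the gelatinase gene Mmp2, at 995 and 1012 against 1271 and 1569 CPM (-0.50 ± 0.18), and Mmp10, at 0.165 and 0.0826 against 0.476 and 0.478 CPM. Of 22 endothelial genes 3 were higher and 1 lower, with a median of 0.10, or 0.03 without R+D replicate 2. Beside Gja4 these included Tek, the angiopoietin receptor, at 1.34 and 2.33 against 0.745 and 0.765 CPM (1.28 ± 0.50), and the lower one was Apln, a peptide of sprouting vessels, at 15.2 and 15.5 against 20.1 and 25.8 CPM (-0.58 ± 0.19). Rgs5, a pericyte gene, was at 14.96 and 34.8 against 11.4 and 10.8 CPM (1.17 ± 0.45), again highest in R+D replicate 2.

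The skeletal muscle list had the largest median of the lists in the plot of list medians, 2.69. Of its 30 genes 28 were positive and 22 higher at an unadjusted p under 0.05, where 3.75% of all genes were higher. Acta1, skeletal alpha actin, stood at 10.3 and 106 CPM in R+D against 8.03 and 4.00 in R+X, Tnnc2, fast troponin C, at 1.78 and 10.9 against 0.931 and 0.956 CPM, and the calcium channel gene Ryr1 at 1.69 and 6.76 against 1.01 and 0.669 CPM. R+D replicate 2 was the high library in each. Without it the median was 0.51 and 0 of the genes were higher at that threshold. Red blood cell genes were low in both combined groups, with a summed level of 21.7 and 32.6 CPM in R+D and 37.2 and 55.4 in R+X, against 223.2 and 260 in Ctrl and 368 and 347 in DOX. They were also low in RP (51.0 and 87.7 CPM) and in DPD replicate 2 (25.3 CPM, with 124 in replicate 1).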

How the data were processed

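RNA of mouse MC38 tumours was sequenced in 12 libraries, 2 in each of 6 groups. The authors deposited raw counts per gene, and the joint table of 43698 rows equals the 12 single-library files. Per the submitters' processing notes, HISAT2 2.1.0, StringTie 1.3.5, DESeq2 and GRCm38 were used; their roles, the annotation and the strand setting were not given in the sources used here, so overlapping and near-identical genes are uncertain. The TRIzol extraction and the NEBNext Ultra kit are named per the labels' protocols. Replicate numbers follow the listing order and pair nothing.

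Here counts were fitted with edgeR 4.0.16 (R 4.3.3; TMM scaling, filterByExpr with a minimum count of 10, 19525 genes tested) in 1 quasi-likelihood model of all 12 libraries, which has 6 residual degrees of freedom. P-values were adjusted by Benjamini-Hochberg over all genes tested. Intervals are 95% intervals from the fit. CPM values are TMM-scaled. Named genes are the 12 of smallest p in each direction whose libraries did not overlap and whose mean was at least 1 CPM, up to 4 members of smallest p in each list described, and a panel. Members and the 44 lists were chosen with earlier results of these data known. Alternatives were DESeq2 1.42.0, limma-voom (limma 3.58.1), other size factors, no filter, each library left out, the compared groups alone, covariates, and rows of one name summed. Leaving out numbered copies of a name, and removing a trend with length and GC content, were chosen after seeing the data. The main fit was also run on simulated counts with known changes. Those counts held no difference in tissue content between the libraries of a group, so they say nothing of that limit.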

Additional observations from a re-analysis of the deposited data

How the results depend on the processing

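No paired analysis was possible because the labels give the libraries of different groups no shared replicate numbers. With DESeq2, 34 genes were higher and 7 lower in R+D than in R+X, 5 higher and 3 lower in DPD than in DOX, and 3 below 0 in the difference of differences, where edgeR called 0 in each. Leaving out 1 library gave 0 genes higher and 0 to 1 lower in R+D (1 without R+D replicate 1), 0 to 1 higher in DPD (1 without DOX replicate 2), and 0 to 1 below 0 in the difference of differences (1 without DOX replicate 2, 1 without R+D replicate 1). The skin and hair covariate gave 1 gene lower in R+D, and the compared groups alone gave 1 gene lower in DPD. At an unadjusted p under 0.05 the genes higher in R+D numbered 259 (without R+D replicate 2) to 928 on leaving out 1 library, with 295 without R+X replicate 2, 1242 with the compared groups alone and 176 with the muscle covariate. The genes lower numbered 136 (without R+X replicate 2) to 496 (without DOX replicate 2), with 495 without DOX replicate 1, 1081 with the compared groups alone and 174 with the muscle covariate. The cause was not tested. Of the 101 genes followed, 5 changed sign on leaving out 1 library: Cxcl9 ranged from -0.14 to 1.09 (lowest without R+D replicate 1), Top2b from -0.20 to 0.28 (lowest without R+D replicate 1), Bax from -0.20 to 0.040 (highest without R+X replicate 2), Lyz2 from -0.19 to 0.079 (highest without R+D replicate 1), and Arg1 from -0.57 to 0.10 (highest without R+X replicate 2, and 0.010 without R+D replicate 1). Of the list medians under the alternatives, 66 moved by more than their spread and 880 did not. The spread here is that of a list's mean log2 level within the R+D and R+X pairs, so uneven pairs widen it. Many alternatives leave the R+D and R+X libraries as they are and can hardly move a median. The larger count is therefore no measure of robustness. With 2 libraries a group, the median 95% interval spanned 1.27 log2 units.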
